A study of Mus musculus with 4 samples.

Results

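The Dlk1-Meg3 locus on mouse chromosome 12 holds 6 genes treated here: Dlk1, Meg3, Rtl1, Rian, Mirg and Dio3. DNA methylation over this locus was measured by MeDIP-seq in pancreatic islets, in which DNA fragments that bind an antibody against 5-methylcytosine are sequenced and their tags pile up over dense methylated CpG sites. All peaks of 4 libraries in a segment of 0.95 Mb from upstream of Dlk1 to past Dio3 were taken, without regard to their values, and peaks that shared at least 1 bp were joined into regions, which ran from 109399365 to 110341457 on chromosome 12 (GRCm38, mm10). There were 122 such regions out of 186169 over the autosomes, X and Y. The locus held 71 and 95 peaks in WT and 76 and 70 peaks in βRapKO.

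WT islets came from mice 8 weeks old on a C57BL/6 background that carried Raptor lox/lox alleles and no Cre, and βRapKO islets from mice of the same age and background with Raptor lox/lox and RipCre, with 2 libraries per genotype. Raptor is the scaffold subunit of the kinase complex mTORC1, and RipCre is driven by the rat insulin promoter, so that Raptor is deleted in insulin-expressing cells. By the study's methods the Cre line was of mixed background, WT mice were littermates and males were used. Since WT mice carried no Cre, an effect of Cre itself and one of the loss of Raptor cannot be told apart. Whole islets also hold alpha, delta and other cells in which the gene is intact. Fewer methylated cells of a type and less methylation per cell cannot be told apart in such a sample, and expression data of the study were not analysed here, so that islet markers were not checked. The labels number the libraries but do not say whether they came from separate animals, so the p-values measure only the spread between these libraries. Pairs of values below are for replicates 1 and 2 in this order.

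The locus is imprinted: its genes are read from the copy of 1 parent. Dlk1, a transmembrane protein of the Notch ligand family, Rtl1, a protein derived from a retrotransposon, and Dio3, a deiodinase that inactivates thyroid hormone, are expressed from the paternal copy. Meg3, Rian and Mirg are non-coding RNAs expressed from the maternal copy, and Rian and Mirg are hosts of snoRNAs and miRNAs. A control region between Dlk1 and Meg3, close to Meg3, is methylated on the paternal copy only and sets this pattern, and a further one at the Meg3 promoter acquires paternal methylation later. MeDIP-seq does not separate the parental copies. The annotation used here does not mark either control region, so regions are named by position.

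By the mean of the 4 libraries, the highest signal of the locus in tags and in tags per kb of peak lay between Dlk1 and Meg3. The 300 bases around peak summits are given here to show how densely CpG sites are packed there. They are those of the region over the start of Dlk1, the 3 regions with the most tags between both genes and the region over the start of Meg3. All are the + strand of GRCm38 (mm10), and capitals mark CpG sites.
Dlk1 start, chr12:109451950-109452249: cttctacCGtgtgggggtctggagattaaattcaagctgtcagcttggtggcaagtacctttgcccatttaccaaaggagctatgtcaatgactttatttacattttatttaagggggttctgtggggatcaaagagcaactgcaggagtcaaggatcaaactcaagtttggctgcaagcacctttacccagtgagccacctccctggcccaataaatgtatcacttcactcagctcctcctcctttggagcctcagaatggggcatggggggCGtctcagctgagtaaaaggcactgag
Gm34081 region 1, chr12:109495615-109495914: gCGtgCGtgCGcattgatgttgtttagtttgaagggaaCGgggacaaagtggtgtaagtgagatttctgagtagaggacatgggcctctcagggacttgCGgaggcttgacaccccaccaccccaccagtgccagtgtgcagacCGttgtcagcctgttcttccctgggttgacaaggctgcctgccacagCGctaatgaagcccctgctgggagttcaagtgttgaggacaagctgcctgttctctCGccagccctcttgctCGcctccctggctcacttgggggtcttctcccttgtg
Gm34081 region 2, chr12:109511274-109511573: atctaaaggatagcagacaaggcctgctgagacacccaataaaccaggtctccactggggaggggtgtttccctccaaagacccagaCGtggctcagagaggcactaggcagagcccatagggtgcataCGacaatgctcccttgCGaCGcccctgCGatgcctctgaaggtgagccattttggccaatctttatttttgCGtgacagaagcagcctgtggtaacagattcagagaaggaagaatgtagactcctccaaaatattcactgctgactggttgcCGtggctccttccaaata
Intergenic maximum, chr12:109527452-109527751: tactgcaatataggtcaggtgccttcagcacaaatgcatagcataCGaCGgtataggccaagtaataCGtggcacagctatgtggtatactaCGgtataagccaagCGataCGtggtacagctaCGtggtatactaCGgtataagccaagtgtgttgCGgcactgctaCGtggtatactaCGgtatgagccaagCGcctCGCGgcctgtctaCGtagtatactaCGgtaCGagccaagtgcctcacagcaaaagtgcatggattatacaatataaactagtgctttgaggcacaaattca
Meg3 start, chr12:109541464-109541763: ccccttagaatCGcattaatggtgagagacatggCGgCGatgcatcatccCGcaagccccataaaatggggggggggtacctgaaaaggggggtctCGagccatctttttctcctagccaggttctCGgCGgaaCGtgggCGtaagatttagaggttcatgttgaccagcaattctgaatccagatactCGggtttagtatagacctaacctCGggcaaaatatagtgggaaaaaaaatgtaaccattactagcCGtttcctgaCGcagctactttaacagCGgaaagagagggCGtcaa
These windows held 2, 9, 7, 17 and 15 CpG sites in this order. The Dlk1 window lies upstream of exon 1, and the Meg3 window lies inside the gene after its start. The window of the intergenic maximum contains the word ACGGTAT 4 times on the + strand, a repeat that was chosen after the sequence had been seen. At least 3 copies of it, counted on both strands, were found in the windows of 11 of 186169 regions (0.00591%). ZFP57, a zinc finger protein that protects imprinted methylation, binds TGCCGC when it is methylated. This hexamer occurred once in the window of the intergenic maximum, on the reverse strand from base 157, and in none of the other 4. On both strands it was found in the windows of 10 of the 122 locus regions (8.20%) and of 8.40% of all regions.

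The locus was rich in peaks in islets of both genotypes. There were 128 joined regions per Mb, against 68.3 per Mb over all chromosomes, and the locus sequence held 1.25 CpG sites per 100 bp against 0.826. Single regions were less different, with a median of 1.73 CpG sites per 100 bp against 1.6 over all regions. Peaks were present in all 4 libraries at 44 of the 122 regions, or 36.1%, beside 40.3% over all regions. A peak in 1 library only was found at 38 regions (31.1%), beside a background of 27.5%. The most tags and peaks were those of WT replicate 2, and its part in these counts was not tested. A library without a peak has no count there, which does not show that the DNA was unmethylated.

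**Figure D1:**
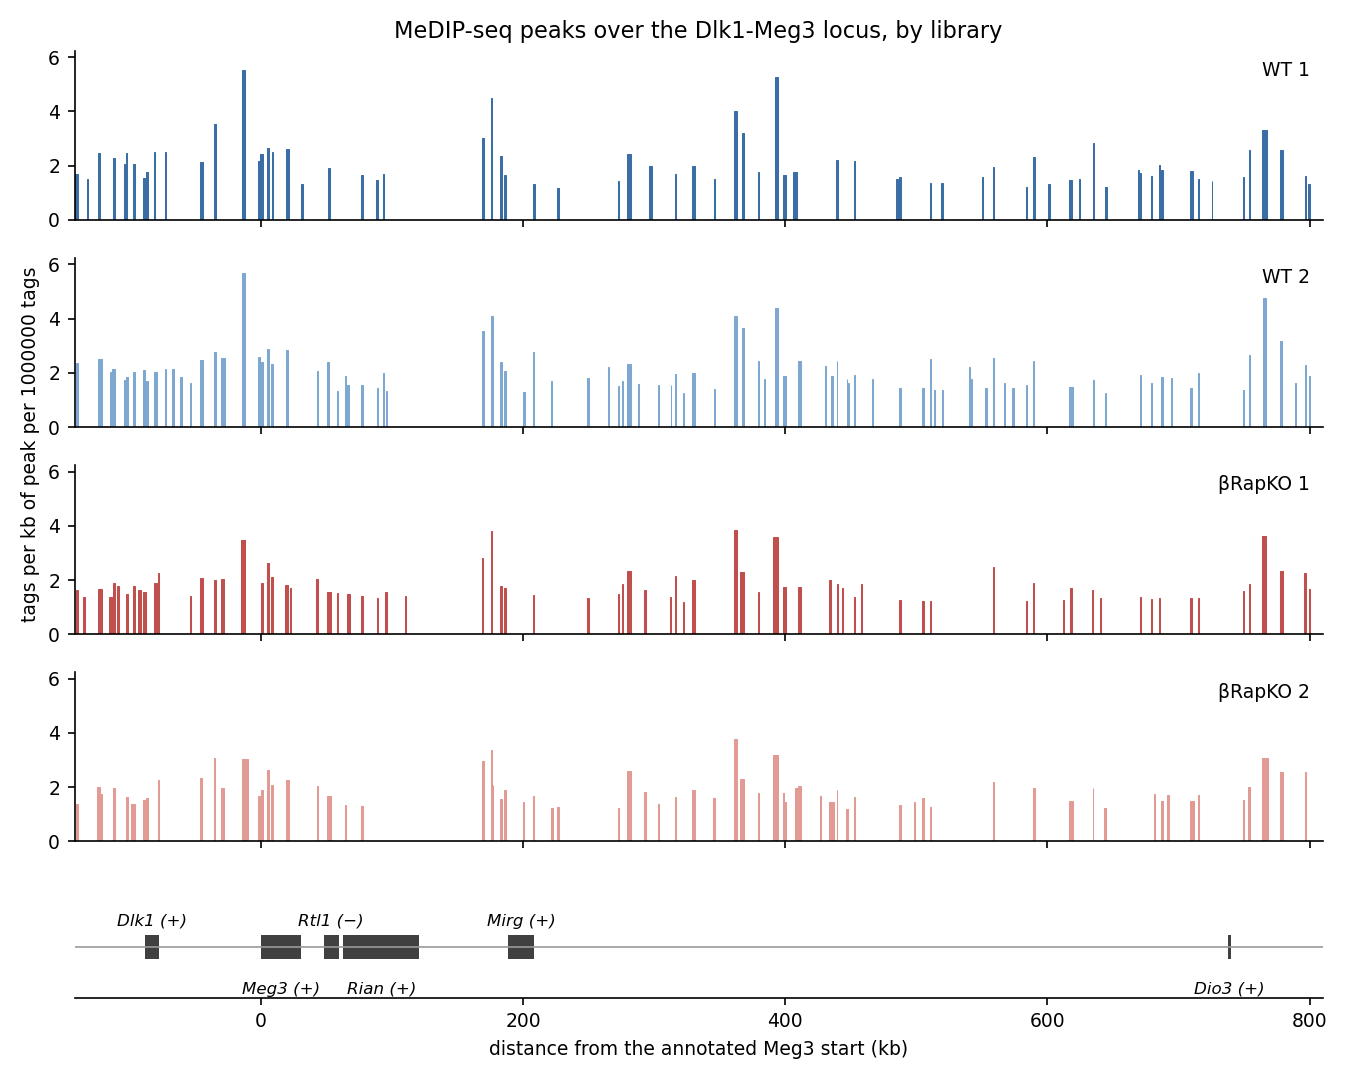
Each bar is a MeDIP-seq peak, with its width to scale and its height the CPM per kb of peak, in each of the 4 libraries, against the distance from the annotated Meg3 start in kb; genes with their strand are drawn below. The tallest bar of both WT libraries lies 13.4 kb before Meg3, and no library has a bar over Dio3.

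The 6 genes differed in how much of them was under peaks. Dlk1 (109452823 to 109463336, + strand) with 2 kb of upstream sequence held 4 regions, Meg3 (109541001 to 109571726, + strand) 6, Rtl1 (109589193 to 109600330, − strand) 2, Rian (109603940 to 109661716, + strand) 7 and Mirg (109729764 to 109749460, + strand) 3. Dio3 (110279068 to 110281097, + strand) held 0 in any library. Regions with peaks in all 4 libraries numbered 1 in Dlk1, 4 in Meg3, 1 in Rtl1, 1 in Rian and 2 in Mirg. The remaining regions lay between the genes, with 8 from Dlk1 to Meg3 and 68 in the long interval from Mirg to Dio3.

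Long stretches of the locus held no peak. The longest ran for 58.1 kb from the 3′ part of Rian, from 109651531 to 109709579, and contained 15 annotated snoRNA genes and 2 miRNA genes with 0.799 CpG sites per 100 bp. Of 23 annotated snoRNA genes in the locus, 2 lay under a region and 0 under one present in all 4 libraries. Of 67 annotated miRNA genes, 19 lay under a region and 17 under one present in all 4 libraries. Dio3 lay in a peak-free stretch of 23 kb from 110266883 to 110289904, although its window held 7.89 CpG sites per 100 bp, the highest value of the 6 genes. The nearest regions ended 10.2 kb before this window and began 8.81 kb after the gene.

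The summed tags of the locus overlapped between the genotypes. CPM here means tags per 1000000 non-duplicate tags of a library, of which there were 25585533 to 31330751. Summed over all locus peaks, the peaks held 228 and 271 CPM in WT and 225 and 232 CPM in βRapKO. WT replicate 2 stood above the other 3 libraries, which lay close together. The log2 ratio of βRapKO to WT was −0.13 (two-sided exact permutation test, p = 0.667) and that of the same sum over the whole genome was −0.16. This sum follows how many peaks were called in a library, since a region without a peak adds 0, and is not a difference in tags at the same places. It also rested on single libraries and on the peak cutoff, with a log2 ratio of −0.00022 without WT replicate 2, −0.25 without WT replicate 1 and −0.45 with stricter peaks, that is those with a MACS score of at least 100 (exact permutation test, p = 0.33). Over only the 44 regions with a peak in every library, an alternative added after the data had been seen, the sums were 176.5 and 176.7 CPM in WT and 159 and 176.1 CPM in βRapKO, with a log2 ratio of −0.08 beside −0.06 over the genome. Only βRapKO replicate 1 stood apart in these sums. The peaks of the locus covered 100.9 and 118 kb in WT and 115 and 115 kb in βRapKO.

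Tag density, or CPM per kb of peak, separated the genotypes when libraries were scaled to their non-duplicate tags. It was 2.26 and 2.29 over the locus peaks of WT and 1.96 and 2.01 in βRapKO. The genotypes did not overlap, and the log2 ratio was −0.20. In a two-sided exact permutation test p was 0.33, which no comparison of 2 libraries with 2 can go below. The log2 ratio of density over the peaks of the whole genome was −0.14. The separation was lost when libraries were scaled to their tags in peaks. Density was then 7.08 and 6.48 in WT and 6.71 and 6.48 in βRapKO, so that the genotypes overlapped, with a log2 ratio of −0.04 (exact permutation test, p = 1).

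To find single regions that differed, edgeR's quasi-likelihood test was run on the tag counts of the 75052 regions present in all 4 libraries, and a call needed a Benjamini-Hochberg FDR under 0.05 and a fold-change above 1.5. Of the 44 locus regions, 0 passed in either direction, as did 0 of all regions (0%). The smallest adjusted p in the locus was 0.567. At an unadjusted p under 0.05, 2 locus regions were lower in βRapKO, beside 3.93% of all regions, and 1 was higher, beside 1.88%. With DESeq2 in place of edgeR 0 locus regions passed, whereas over all regions 0 passed as lower (0%) and 2 as higher (0.00266%). At an unadjusted p under 0.05, DESeq2 gave 1 lower locus region, beside 0.486% of all regions, and 1 higher, beside 0.797%.

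The direction of the 44 regions leaned towards lower values in βRapKO islets. Mean CPM was lower in βRapKO at 31 of them, or 70.5%, beside a background of 61.0%, with a median log2 fold-change of −0.13 beside −0.06 over all regions. This lean rested on βRapKO replicate 1: without it, 53.1% of 49 testable locus regions were lower, beside 54.1% of all regions. It also depended on the scaling, and with CPM taken per 1000000 tags in peaks 20 of the 44 regions were lower (45.5%) beside 31.4% of all regions. Each βRapKO library was below each WT library at 17 regions (background 25.3%) and above at 5 (background 11.6%). A fold-change above 1.5 in mean CPM was found at 1 lower region (background 1.77%) and 1 higher region (background 1.29%).

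Density per kb of peak was lower in βRapKO at 38 of the 44 regions, beside 79.6% of all regions. Its median log2 ratio was −0.25 in the locus and −0.17 over all regions. When tags per kb of peak were fitted with edgeR, 12 of the 44 regions were lower at an unadjusted p under 0.05, beside 12.7% of all regions, 0 were higher, and the smallest adjusted p of the locus was 0.116. Each βRapKO value was below each WT value in density at 27 regions (background 41.1%) and above at 1 (background 4.54%). Scaled to tags in peaks, which was added after the data had been seen, density was lower in βRapKO at 31 of the 44 regions (70.5%), beside 50.7% of all regions. Each βRapKO value was then below each WT value at 13 regions (background 17.3%) and above at 6 (background 15.9%). The fold enrichment that the authors' peak caller gave over the local background was lower in βRapKO at 33 regions (background 77.2%), with each βRapKO library below each WT library at 21 (background 37.4%). Its median log2 ratio of −0.15 was close to −0.14 over all regions. Peaks were on average wider in βRapKO than in WT at 28 of the 44 locus regions (63.6%) and at 70.5% of all regions.

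**Figure D2:**
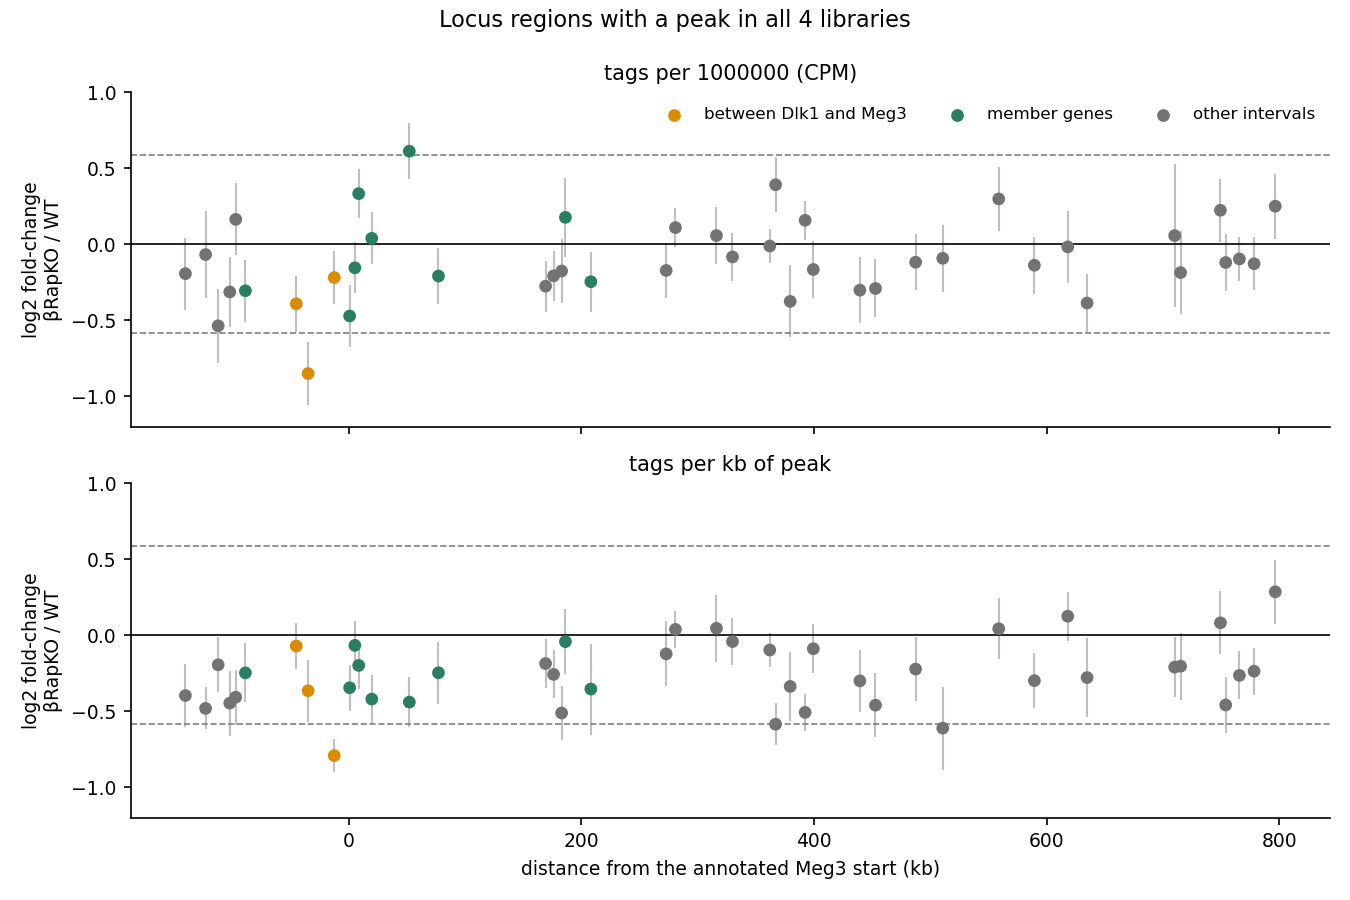
Points are the 44 locus regions with a peak in all 4 libraries, placed by distance from the Meg3 start in kb; the y axis is the fitted log2 fold-change of βRapKO over WT from edgeR with its standard error, for CPM above and tags per kb of peak below, with dashed lines at a fold-change of 1.5. In CPM 1 region lies below the lower line and 1 above the upper line, and in the lower panel most points are below 0.

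The intergenic maximum was the region with the highest mean CPM and the highest mean density of the 44. It ran from 109526181 to 109530920, between Dlk1 and Meg3 and over the edge of the predicted gene Gm27528, and held 131 CpG sites, or 2.76 per 100 bp. Its 4 summits lay within 24 bp of each other, 13.4 kb before the Meg3 start and 64.3 kb after the Dlk1 end. Its mean density was above that of 98.6% of all regions with peaks in 4 libraries. In the βRapKO libraries its density was not the highest, and several regions exceeded it in both. Among them, the region from 109901643 to 109904375 had 3.83 and 3.76, and that from 109716397 to 109717860 had 3.81 and 3.36. In βRapKO replicate 1 the region from 109931528 to 109935314 had more tags, at 13.1 CPM. The regions from 109901643 to 109904375 (10.2 CPM) and from 110304686 to 110309000 (9.68 CPM) also had more in that library. In fold enrichment several of the 44 regions were above the intergenic maximum in every library. Among them, the region from 109709580 to 109710959 had 18.1 and 19.7 in WT and 18.2 and 17.5 in βRapKO. The region from 110318414 to 110320515 had 18.3 and 19.2 in WT and 15.8 and 18.7 in βRapKO.

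The total tags of this region did not separate the genotypes. They came to 13.2 and 14.1 CPM in WT and 9.51 and 14.0 CPM in βRapKO, or 13.7 ± 0.657 (SD, n = 2) against 11.7 ± 3.16 (SD, n = 2). βRapKO replicate 1 was low, whereas βRapKO replicate 2 lay between the WT libraries. The log2 fold-change was −0.22 ± 0.17 (SE), with an adjusted p of 0.881 from edgeR's quasi-likelihood test, and without βRapKO replicate 1 it was 0.03.

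Its density did separate them. It was 5.53 and 5.67 tags per kb of peak per 1000000 tags in WT and 3.46 and 3.05 in βRapKO. Neither βRapKO library reached the lower WT library. The log2 ratio was −0.78, and 0.961% of the 75052 regions with peaks in all 4 libraries had one as low or lower. Scaled to tags in peaks the values were 17.3 and 16 in WT and 11.8 and 9.85 in βRapKO, which were still apart, with a log2 ratio of −0.62. Peaks were 2390 and 2493 bp long in WT and 2751 and 4582 bp long in βRapKO, so that a CPM like that of WT was spread over a longer peak in βRapKO replicate 2. In the alternative fit of tags per kb, the log2 fold-change was −0.79 ± 0.11 (SE) with an unadjusted p of 9.97e-06, the 6th smallest of 75052 regions, and an adjusted p of 0.116 from edgeR's quasi-likelihood test. This did not pass the threshold. The fold enrichment at the peak was 8.41 and 9.16 in WT and 6.97 and 7.70 in βRapKO, lower in both βRapKO libraries but by a log2 ratio of only −0.26. Counted from the lowest of the 75052 regions, this ratio ranked at 27.3%, and the log2 fold-change in CPM at 22.9%.

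**Figure D3:**
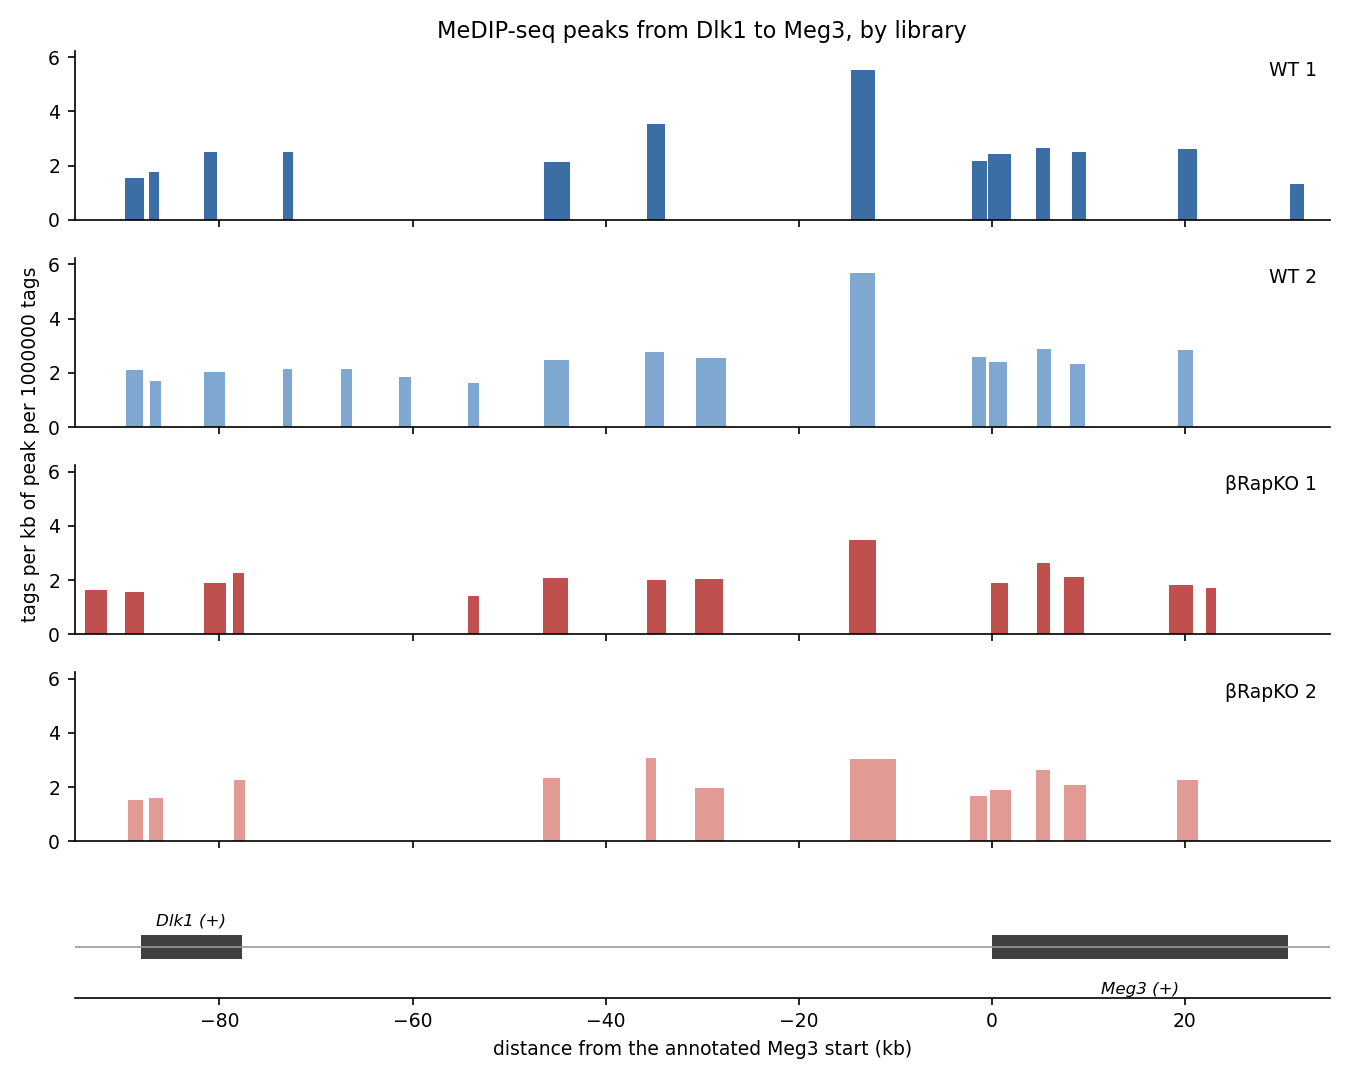
Peaks from Dlk1 to Meg3 in each library, with widths to scale on an axis of kb from the Meg3 start and heights as CPM per kb of peak. The bar at the intergenic maximum stands at 5.53 and 5.67 in the WT libraries and at 3.46 and 3.05 in the βRapKO libraries and is widest in βRapKO replicate 2.

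The lowest log2 fold-change of the locus in CPM lay in the same interval. The region from 109505040 to 109507116, over the predicted gene Gm34081, had 6.37 and 5.39 CPM in WT and 3.80 and 2.71 CPM in βRapKO. The genotypes did not overlap, with βRapKO lower. The log2 fold-change was −0.85 ± 0.21 (SE), with an unadjusted p of 0.00373 and an adjusted p of 0.567 from edgeR's quasi-likelihood test, so it was not called. Density overlapped between the genotypes, at 3.54 and 2.77 in WT and 2.02 and 3.09 in βRapKO. The log2 ratio of density lay between −0.033 without βRapKO replicate 1 and −0.65 without βRapKO replicate 2. The peak of βRapKO replicate 2 was 877 bp long, and those of the other libraries were 1799 to 1944 bp long.

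The other regions with many tags in this interval are those of both Gm34081 sequences shown above. The first, from 109494541 to 109497231, had 5.63 and 6.10 CPM in WT and 5.13 and 3.80 CPM in βRapKO. The βRapKO values were the lower ones, with a log2 fold-change of −0.39 ± 0.19 (SE, adjusted p = 0.858 from edgeR) that was −0.62 without βRapKO replicate 1 and −0.19 without βRapKO replicate 2. The second, from 109510273 to 109513345, had 7.72 CPM in WT replicate 2 and 5.68 and 5.66 CPM in the βRapKO libraries, but no peak in WT replicate 1, and was not tested. Over all 8 regions of the interval, the density of peaks was 3.55 and 2.95 in WT and 2.34 and 2.62 in βRapKO. These values rest on peaks at 4 and 8 of the regions in WT and at 5 and 4 in βRapKO, so they do not cover the same places. Whether they stay apart when scaled to tags in peaks was not tested.

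At the start of Dlk1 the difference was within the spread of the libraries. The region from 109451189 to 109453092 covers upstream sequence and the 5′ part of exon 1 with its UTR, and had 2.93 and 3.45 CPM in WT and 2.91 and 2.26 CPM in βRapKO. WT replicate 1 and βRapKO replicate 1 were nearly equal. The log2 fold-change was −0.31 ± 0.21 (SE), with an adjusted p of 0.866 from edgeR's quasi-likelihood test. Density was 1.56 and 2.11 in WT and 1.55 and 1.54 in βRapKO, again with WT replicate 1 close to both βRapKO libraries. The log2 fold-change in CPM was −0.50 without βRapKO replicate 1, −0.14 without βRapKO replicate 2 and −0.18 without WT replicate 2. The log2 ratio of density was −0.45 without WT replicate 1 and −0.010 without WT replicate 2.

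The 3 other Dlk1 regions lacked a peak in some library. Over exons 2 and 3, from 109453675 to 109455008, WT had 1.64 and 1.82 CPM and βRapKO replicate 2 had 2.06 CPM. Over the coding part and UTR of exon 6, from 109459366 to 109461588, the values were 3.05 and 4.21 CPM in WT and 4.24 CPM in βRapKO replicate 1. Over the end of Dlk1 in exon 6 (109462439 to 109463499), peaks of 2.33 and 2.30 CPM were found in both βRapKO libraries and in neither WT library. Dlk1 thus held both a region with lower mean CPM at its start and 1 of the 2 locus regions called in βRapKO alone.

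At the start of Meg3 each βRapKO library was below each WT library. The region from 109540648 to 109542886, which covers upstream sequence and exon 1 with 3.26 CpG sites per 100 bp, more than in 97.6% of all regions, had 5.47 and 4.21 CPM in WT and 3.08 and 3.87 CPM in βRapKO. The log2 fold-change was −0.47 ± 0.20 (SE), with an adjusted p of 0.858 from edgeR's quasi-likelihood test. Without WT replicate 1 it was −0.28 and without βRapKO replicate 1 −0.32, whereas it was −0.65 without either of the other libraries. Density repeated the order, with 2.44 and 2.39 in WT and 1.89 and 1.91 in βRapKO, a gap larger than the spread within either genotype. Scaled to tags in peaks, density was 7.645 and 6.741 in WT and 6.479 and 6.163 in βRapKO. The order was kept, but the gap was then smaller than the spread within either genotype. Just upstream, from 109538714 to 109540412, the region had 3.20 and 3.22 CPM in WT, no peak in βRapKO replicate 1 and 2.84 CPM in βRapKO replicate 2.

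Within the Meg3 gene body the direction was mixed in CPM. The region over exon 5, from 109545583 to 109546984, had 3.44 and 3.80 CPM in WT and 3.18 and 3.32 CPM in βRapKO (log2 fold-change −0.16 ± 0.17 SE, adjusted p = 0.910 from edgeR). The region over exons 6 to 8, from 109548468 to 109550641, had 3.36 and 3.54 CPM in WT and 4.21 and 4.49 CPM in βRapKO. Each βRapKO library was above each WT library (log2 fold-change 0.33 ± 0.16 SE, adjusted p = 0.858 from edgeR), but their peaks were longer and the log2 ratio of density was −0.20. The region with the most tags in Meg3, in an intron from 109559331 to 109562249, had 4.81 and 3.99 CPM in WT and 4.31 and 4.70 CPM in βRapKO. These values overlapped, with a log2 fold-change of 0.04 ± 0.17 (SE, adjusted p = 0.980 from edgeR). In density all 4 Meg3 regions with peaks in every library had each βRapKO library below each WT library, beside the 41.1% given above for all regions. Scaled to tags in peaks, the regions over the start and in the intron still had this order. The region over exons 6 to 8 did not, at 7.82 and 6.53 in WT and 7.24 and 6.67 in βRapKO. Over exon 5, density before this scaling was 2.644 and 2.869 in WT and 2.641 and 2.637 in βRapKO. After it, both βRapKO values there lay above both WT values.

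Rtl1 had the highest log2 fold-change of the locus in CPM and a negative one in density. The region from 109591452 to 109594721 lies over the coding sequence in exon 2, had 3.27 CpG sites per 100 bp, and also covers Mir433, Mir127 and Mir434, which are transcribed from the other strand and whose miRNAs match Rtl1 as antisense. Their mature sequences, from RefSeq on GRCm38.p6, are given to show what lies under this region, with the seed (bases 2 to 8) in capitals.
mmu-miR-433-5p: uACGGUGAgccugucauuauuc
mmu-miR-433-3p: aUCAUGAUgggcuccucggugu
mmu-miR-127-5p: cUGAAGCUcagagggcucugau
mmu-miR-127-3p: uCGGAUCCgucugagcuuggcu
mmu-miR-434-5p: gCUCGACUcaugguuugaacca
mmu-miR-434-3p: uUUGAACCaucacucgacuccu
The seeds of the 6 miRNAs were all different. Tags in this region came to 2.93 and 3.83 CPM in WT and to 5.0 and 5.38 CPM in βRapKO. Each βRapKO library was above each WT library, at 3.38 ± 0.636 (SD, n = 2) in WT against 5.19 ± 0.272 (SD, n = 2) in βRapKO. The log2 fold-change was 0.61 ± 0.18 (SE), with an unadjusted p of 0.0115 and an adjusted p of 0.786 from edgeR's quasi-likelihood test, so it was not called. Leaving out WT replicate 1 gave 0.44, and leaving out WT replicate 2 gave 0.82.

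The peaks of this Rtl1 region were 1516 and 1588 bp long in WT and 3186 and 3240 bp long in βRapKO. Per kb of peak, the values were 1.93 and 2.41 in WT and 1.57 and 1.66 in βRapKO, with each βRapKO library below each WT library. The fitted log2 fold-change of tags per kb was −0.44 ± 0.16 (SE, adjusted p = 0.311 from edgeR). The measures thus differed in direction. Without WT replicate 2 the log2 ratio of density was −0.26, and without WT replicate 1 it was −0.58. At the start of Rtl1, in the intron from 109599256 to 109600147, peaks were found in WT replicate 2 at 1.05 CPM and in βRapKO replicate 1 at 1.37 CPM.

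**Figure D4:**
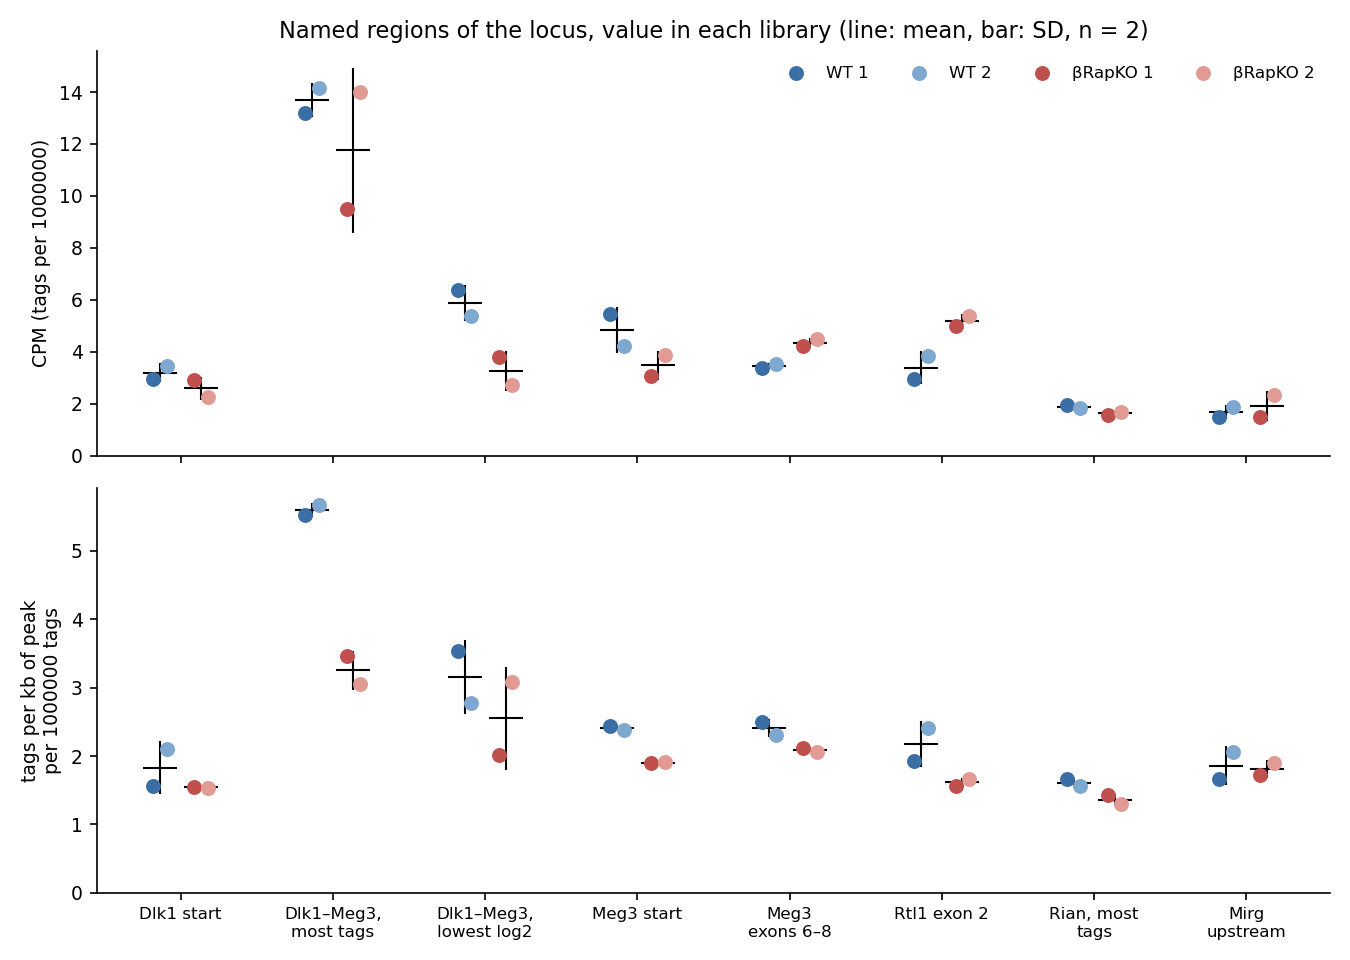
CPM (upper panel) and tags per kb of peak per 1000000 tags (lower panel) of 8 regions in each library, with WT in blue, βRapKO in red, the line at the mean and the bar the SD of 2 libraries. At the intergenic maximum the genotypes overlap in CPM and are apart in density, and at Rtl1 exon 2 they are apart in both but in opposite directions.

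Rian and Mirg carried weak signal in CPM. In Rian, 6 of 7 regions lacked a peak in some library, and the region in all 4, over Mir370 in an intron from 109617478 to 109618826, had 1.95 and 1.82 CPM in WT and 1.57 and 1.68 CPM in βRapKO. Both βRapKO libraries were lower, with a log2 fold-change of −0.21 ± 0.19 (SE, adjusted p = 0.894 from edgeR). Counted from the lowest, its density ranked at only 7.73% of the regions with peaks in all 4 libraries. Its fold enrichment was not low beside the intergenic maximum, at 9.09 and 9.16 in WT and 7.53 and 6.73 in βRapKO.

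Upstream of Mirg, the region from 109726690 to 109727913 over Mir381 and Mir487b had 1.49 and 1.88 CPM in WT and 1.51 and 2.33 CPM in βRapKO. The genotypes overlapped, and the log2 fold-change was 0.18 ± 0.26 (SE, adjusted p = 0.938 from edgeR). At the 3′ end of Mirg over exon 17, from 109748574 to 109749798, WT had 1.56 and 1.95 CPM and βRapKO 1.47 and 1.51 CPM. Fold enrichment there was above that of the intergenic maximum in each library, and upstream of Mirg it was below it. Between Rian and Mirg, 3 regions over clustered miRNA genes (Mir411 with Mir299a, Mir666 with Mir543, and Mir654 with Mir376a and Mir376b) were found in all 4 libraries. Mean CPM was lower in βRapKO at all 3, as it was at 61.0% of all regions. Their log2 fold-changes were −0.28, −0.21 and −0.18, with adjusted p of 0.864, 0.879 and 0.917 from edgeR.

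Peaks in both libraries of 1 genotype and neither of the other were few. There were 4 such regions for WT, or 3.28% of the 122 beside a background of 4.16%, and 2 for βRapKO, or 1.64% beside 1.58%. The WT regions lay upstream of Dlk1 (109436693 to 109437711, 1.84 and 1.6 CPM), between Dlk1 and Meg3 (109467547 to 109468466, 2.27 and 1.95 CPM), in Rian (109634148 to 109634742, 1.02 and 1.09 CPM) and over the predicted gene Gm34719 between Mirg and Dio3 (110060138 to 110061152, 1.37 and 0.830 CPM). The βRapKO regions were the Dlk1 3′ end given above and one between Mirg and Dio3 (109833135 to 109834652, 2.05 and 2.74 CPM). All were weak beside the intergenic maximum.

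Outside the genes, the regions with the lowest and highest log2 fold-changes were also not called. Upstream of Dlk1, the region from 109427827 to 109429621 had 2.50 and 3.86 CPM in WT and 2.16 and 2.26 CPM in βRapKO, with a log2 fold-change of −0.54 ± 0.24 (SE, adjusted p = 0.858 from edgeR). Each βRapKO value was below each WT value, but the WT libraries differed from each other by more than WT replicate 1 differed from βRapKO. The log2 fold-change was −0.80 without WT replicate 1 and −0.18 without WT replicate 2. Between Mirg and Dio3, the region from 109906569 to 109909509 had 4.26 and 5.94 CPM in WT and 6.60 and 6.82 CPM in βRapKO, a log2 fold-change of 0.39 ± 0.18 (SE, adjusted p = 0.858 from edgeR). This was 0.18 without WT replicate 1 and 0.66 without WT replicate 2. Its peaks were 1330 and 1620 bp long in WT and 2884 and 2941 bp in βRapKO, its log2 ratio of density was −0.58, and repeats made up 84.8% of its sequence. In each of the 3 regions with the highest log2 fold-changes of the locus, both βRapKO peaks were longer than both WT peaks and density was lower in βRapKO.

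The same values were computed for 36 imprinted genes outside the locus. In these, 97 of 282 regions had peaks in all 4 libraries. Mean CPM was lower in βRapKO at 64 of them (66.0%), beside 61.0% of all regions. Their median log2 fold-change was −0.10, beside −0.06 over all regions, and 0 regions were called. In density 82 of the 97 regions were lower, beside 79.6% of all regions. The difference between these genes and the Dlk1-Meg3 locus was not tested. At the targeted gene Rptor, which encodes Raptor, 9 of 13 regions in all 4 libraries (69.2%) had lower mean CPM in βRapKO, beside the same 61.0%. The number of peak tags there does not report the deletion, whose exon was not located here.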

How the data were processed

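MeDIP-seq was done on islet DNA of 2 WT and 2 βRapKO libraries. Reads were aligned to mm10 with Bowtie2 2.2.5, per the study's methods (the labels also list mm9). Every peak end lay within the chromosome lengths of GRCm38, the build used here. The authors called peaks library by library with MACS (1.4.2 per the file headers, 0.14.2 in the submitters' processing notes). They set the p cutoff to 1e-05 and the span of the local background to 10000 bp, kept 1 tag per position and used no control. Such calls also mark repeats where tags pile up, and a peak's width moves with depth. The deposited values of a peak are its raw count of tags, 10 times the −log10 of its p, and the fold enrichment of its summit against the local background. Tags outside peaks were not used here, so a count over a fixed window was not computed.

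Samples were grouped by the genotype in the labels. Peaks of all libraries were joined where they overlapped by at least 1 bp, and tags of a library's peaks in a region were added. Library size was the number of tags left after duplicate removal, 25585533 to 31330751, after 49.8 to 51.0% were lost. Regions in all 4 libraries were fitted over the whole genome with edgeR 4.0.16 (R 4.3.3) and Benjamini-Hochberg adjustment. On simulated counts of 75052 regions, drawn with a common dispersion and with 200 regions changed 2-fold, 113 were found and 7 unchanged regions were called. Libraries of 1 genotype differed by more than sampling noise (chi-square per region 2.29 in WT and 2.35 in βRapKO), so intervals from counting error alone are not given. Replicate numbers 1 and 2 occur in both genotypes. Deviations of same-numbered libraries from their genotype means correlated by 0.0474 over all regions, so the numbers were not taken to pair libraries, and the replicate block was an alternative fit only. Alternatives were other library sizes, TMM, DESeq2 1.42.0, limma 3.58.1 on log2(CPM + 0.5), tags per kb of peak, at least 50 tags, stricter peaks (10 times −log10(p) of 100 or more), an overlap of 50% of the shorter peak, and leaving out each library.

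Genes came from GENCODE M21, with exons numbered along 1 principal transcript, and a gene's window included 2 kb of upstream sequence. Named regions were those over each gene's start (2 kb before to 500 bp after), those with the most tags in each gene, the 3 with the most tags between Dlk1 and Meg3, those in both libraries of 1 genotype alone, and the 3 lowest and 3 highest log2 fold-changes. Sequences are from RefSeq GRCm38, in windows of 300 bp at the mean summit. Python 3.11.15, NumPy 2.4.6, pandas 2.3.3, SciPy 1.17.1 and matplotlib 3.10.9 were used. The genes, regions and lists were chosen with earlier results of these data known.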

Additional observations from a re-analysis of the deposited data

How the results depend on the processing

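No region of the locus passed the test as first fitted or under the alternatives run, among them another library size, TMM, DESeq2, limma, the stricter filters and the removal of each library. With the replicate block 0 regions passed, and the smallest adjusted p of the locus was 0.438 (edgeR). In that fit 68.2% of the 44 regions had lower values in βRapKO, beside 60.7% of all regions. The scaling shifts all regions together: when libraries were scaled to their tags in peaks, the median of all regions rose by 0.163 on the log2 scale, 20 of 44 locus regions were lower in βRapKO, the locus median became 0.027 and the log2 ratio of summed CPM 0.037. TMM and DESeq2 shifted the median of all regions by 0.06, and tags per kb of peak by −0.11, with a locus median of −0.25. Relative to the median of all regions, the locus median was −0.08 in the main fit, −0.08 with tags in peaks, −0.09 per kb, −0.030 with stricter peaks, −0.042 without WT replicate 2, −0.12 without βRapKO replicate 2 and 0.0087 without βRapKO replicate 1. With stricter peaks 10 of 15 regions were lower (66.7%), beside 63.9% of all regions, and 0 regions were found in βRapKO alone.

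The log2 ratio of locus density was −0.04 with tags in peaks (exact permutation test, p = 1) and −0.16 with stricter peaks, and −0.22 to −0.18 when each library was left out. That of summed CPM was −0.45 with stricter peaks and −0.25 to −0.00022 when each library was left out. Leaving out each library moved the locus median between −0.21 (without βRapKO replicate 2) and −0.016 (without βRapKO replicate 1). The regions called in WT alone then numbered 9 to 20, and those in βRapKO alone 2 to 11. With a library left out the rule for such regions is looser, so these counts could not fall and do not measure stability. Their shares over all regions under the looser rule were not computed. At the intergenic maximum the log2 fold-change lay between −0.52 (without βRapKO replicate 2) and 0.032 (without βRapKO replicate 1). Per kb of peak the log2 fold-change turned to −0.20 at Meg3 exons 6 to 8, −0.42 in the Meg3 intron, −0.44 at Rtl1 exon 2, −0.042 upstream of Mirg and −0.58 at the region from 109906569, and the cause was not tested beyond the peak lengths given above. Without each library the Meg3 intron ranged from −0.094 to 0.17, falling below 0 without WT replicate 2 and without βRapKO replicate 2, and the Mirg region from −0.17 without βRapKO replicate 2 to 0.46. The removal of libraries from density ratios was added after the data had been seen. Density at the region from 109494541 ranged from −0.16 to 0.057 and upstream of Mirg from −0.18 to 0.12, in both cases above 0 without WT replicate 2 and without βRapKO replicate 1. In simulated counts of the same depth 113 of 200 differences of 2-fold were found, so a 2-fold difference at a single region can be missed with 2 libraries per genotype. All regions were simulated with the same dispersion (0.015). A spread that differs by region and differences in peak calling were not simulated. Smaller differences were not simulated.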

Other observations

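After the intergenic maximum, the regions with the most tags lay in repeats. The region from 109931528 to 109935314, between Mirg and Dio3, had 12.5 and 10.2 CPM in WT and 13.1 and 12.1 CPM in βRapKO, and repeats made up 86.1% of it. The region from 110304686 to 110309000, past Dio3, had 12.6 and 11.1 CPM in WT and 9.68 and 12.4 CPM in βRapKO, with 90.7% repeats. The region from 109901643 to 109904375 had 10.9 and 9.67 CPM in WT and 10.2 and 10.2 CPM in βRapKO, with 89.8% repeats. Repeats made up 4.24% of the intergenic maximum and a median of 15.0% of the 122 locus regions, beside 24.4% over all regions. How many of the tags in these repeats could be placed at another copy was not tested. The genotypes overlapped in CPM at all 3 regions, with log2 fold-changes of 0.16, −0.10 and −0.01 and adjusted p of 0.883, 0.938 and 0.991 from edgeR's quasi-likelihood test.

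Across the 44 locus regions with peaks in all 4 libraries, mean density followed the number of CpG sites per 100 bp with a Spearman rho of 0.382, beside 0.409 over all such regions. The points share libraries and depth, and MeDIP enriches by CpG density, so this is a description only.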
